A study of Homo sapiens with 8 samples.

Results

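Cadherins are calcium-dependent adhesion proteins that hold neighbouring cells together, and the balance between epithelial and mesenchymal ones is part of the programme called epithelial-mesenchymal transition (EMT). The genes examined were 10 named ones, chosen among cadherins and genes linked to that programme. They were 5 cadherins (CDH1, CDH2, CDH3, CDH16 and CDH17), the epithelial adhesion molecule gene EPCAM, the intermediate filament gene VIM, and 3 transcription factor genes (ZEB1, SNAI1 and SNAI2). All 10 were found by symbol, each as 1 row, among 19158 genes in the files. They were chosen by their symbols after the difference between treated and untreated wells had been seen in the same values, so the values below describe them and no p-value is given for a member.

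RNA was sequenced from A549 cells, an established lung adenocarcinoma line of epithelial origin labelled WT, after depletion of ribosomal RNA. Untreated wells (4, replicates 1, 3, 4 and 5) were compared with wells given 1 µM dexamethasone for 48 h (4, replicates 1, 3, 4 and 5). Dexamethasone is a man-made steroid drug whose receptor, the glucocorticoid receptor, is itself a transcription factor. All cells grew in DMEM with serum, all libraries carried the same batch label, and the line is a tumour line rather than normal lung epithelium. Values are FPKM, fragments per length of transcript and per sequenced total, as deposited. Differences are of log2(FPKM + 1) after scaling between libraries, dexamethasone minus untreated, which understates the change of low genes.

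E-cadherin (CDH1) joins epithelial cells and N-cadherin (CDH2) is typical of mesenchymal and neural cells, so a shift from the first to the second is a usual sign of EMT. SNAI1, SNAI2 and ZEB1 are zinc finger repressors that can bind the E-cadherin gene, and vimentin (VIM) is a filament protein of mesenchymal cells that many cultured carcinoma lines also make. CDH16 and CDH17 belong to a separate branch of cadherins with a short cytoplasmic tail, known from kidney tubules and from intestine and liver respectively. Glucocorticoids are known to tighten epithelial barriers in several tissues.

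The labelled cell type was checked against marker genes. Keratins of simple epithelia were abundant, with KRT8 at 1453 ± 435 and KRT18 at 946 ± 218 FPKM (SD, n = 4 each) in untreated cells. EPCAM was below 1 FPKM in every library, and GRHL2 and OVOL1, transcription factors of epithelial identity, were listed at 0 in all 8. For other cell types, PTPRC and CD3E of leukocytes and COL1A2 of fibroblasts were listed at 0 in all 8 libraries, and 5 endothelial genes together summed to at most 0.186 FPKM. The 6 fibroblast genes summed to 1.82 to 2.30 FPKM untreated and 0.598 to 0.786 FPKM after dexamethasone, and COL1A1 alone was at 1.79 to 2.25 and 0.274 to 0.437 FPKM. The 4 leukocyte genes found summed to 2.01 to 3.14 and 1.19 to 1.56 FPKM, of which CD14 was 2.01 to 3.14 and 1.19 to 1.56 FPKM. In RNA from whole wells, fewer cells of a type and less RNA per cell cannot be told apart.

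Steps between low FPKM values gave an estimated depth of 24890000 to 29350000 fragments per library, or about double that, since steps of 49780000 to 58700000 fitted about as well. Untreated replicate 5 stood apart, with 10555 genes at 1 FPKM or more against 11290 to 11378 in the other untreated libraries. Dexamethasone replicate 5 was also the lowest of its group, with 11008 genes against 11263 to 11319. In deposited FPKM untreated replicate 5 held the lowest untreated value for 7 of the 10 members. Dexamethasone replicate 5 held the lowest treated value for 6 of them. After scaling, untreated replicate 5 was lowest for 6 and highest for 4, and dexamethasone replicate 5 lowest for 4 and highest for 2. FKBP5, a standard glucocorticoid-induced gene, was at 3.28 to 7.30 FPKM untreated and 87.3 to 166 FPKM treated, so each library carried the response of its label.

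The largest difference among the members was in CDH16, also called kidney-specific cadherin (ENSG00000166589, GRCh38 chromosome 16, 66908122 to 66918984, minus strand). In untreated replicates 1, 3, 4 and 5 it was at 0.293, 0.298, 0.539 and 0.453 FPKM. In dexamethasone replicates 1, 3, 4 and 5 it was at 45.9, 42.9, 36.1 and 40.2 FPKM. Every treated well lay far above every untreated one. The means were 0.396 ± 0.121 and 41.3 ± 4.13 FPKM (SD, n = 4 each), a ratio of 104, and the log2 difference was 4.92 (SE 0.129). It moved from the 36.0th to the 92.8th percentile of all genes in the files by mean FPKM.

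CDH1 (ENSG00000039068, chromosome 16, 68737225 to 68835548, plus strand) was higher after dexamethasone. Untreated replicates 1, 3, 4 and 5 had 6.54, 7.22, 8.52 and 4.899 FPKM, and the treated ones had 16.7, 17.4, 19.7 and 19.2 FPKM. The groups did not overlap, and the means of 6.796 ± 1.51 and 18.2 ± 1.45 FPKM (SD, n = 4 each) gave a ratio of 2.68 and a log2 difference of 1.33 (SE 0.134). CDH1 overlaps an unnamed gene on the opposite strand, and use of strand in the counting is not stated.

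CDH2 (ENSG00000170558, chromosome 18, 27950966 to 28177446, minus strand), which also overlaps an unnamed gene on the opposite strand, stayed near its starting level. Its untreated values were 14.5, 15.3, 14.1 and 9.47 FPKM and its treated values 14.9, 15.3, 13.9 and 13.6 FPKM. Apart from untreated replicate 5, which was lower, the 8 wells held similar levels, and the log2 difference was 0.14 (SE 0.117) and turned to -0.031 once values were corrected, library by library, for the GC content of genes (GC trend removed). Across the 8 libraries the ratio of CDH1 to CDH2 in FPKM, a level per length, was 0.511 ± 0.0680 untreated and 1.27 ± 0.166 treated (SD, n = 4 each). That ratio ran from 0.450 to 0.604 in untreated wells and from 1.12 to 1.42 in treated wells, so N-cadherin RNA was the more abundant in every untreated well and E-cadherin RNA in every treated one.

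The remaining cadherins were low. CDH17, the liver-intestine cadherin (ENSG00000079112, chromosome 8, minus strand), measured 1.899, 1.999, 1.65 and 0.918 FPKM in the untreated wells 1, 3, 4 and 5. After dexamethasone it was at 2.98, 2.88, 2.19 and 1.92 FPKM. The deposited values overlapped only between treated replicate 5 and untreated replicate 3, and did not overlap after scaling; the log2 difference was 0.44 (SE 0.143), or 0.27 with the GC trend removed. CDH3, the P-cadherin of basal epithelial layers (ENSG00000062038, chromosome 16, 68636189 to 68722616, plus strand), was at 0.0299 to 0.0571 FPKM untreated and 0.00711 to 0.0154 FPKM treated. Both ranges are close to 0 and the gene was too low to be tested. It lies next to CDH1 on the same strand, but at these levels no direction is read for CDH3.

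Summed over the 5 cadherins, untreated wells held 22.2 ± 4.32 FPKM and treated wells 76.5 ± 3.76 FPKM (SD, n = 4 each). CDH2 made up 60.1% ± 2.45 of that sum in untreated wells and 18.9% ± 0.634 in treated wells (SD, n = 4 each). CDH16 went from 1.87% ± 0.797 to 53.9% ± 2.83 of it (SD, n = 4 each). CDH1 was 30.6% ± 2.75 and 24.0% ± 3.07 (SD, n = 4 each), so its share was not higher although its level was.

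**Figure D1:**
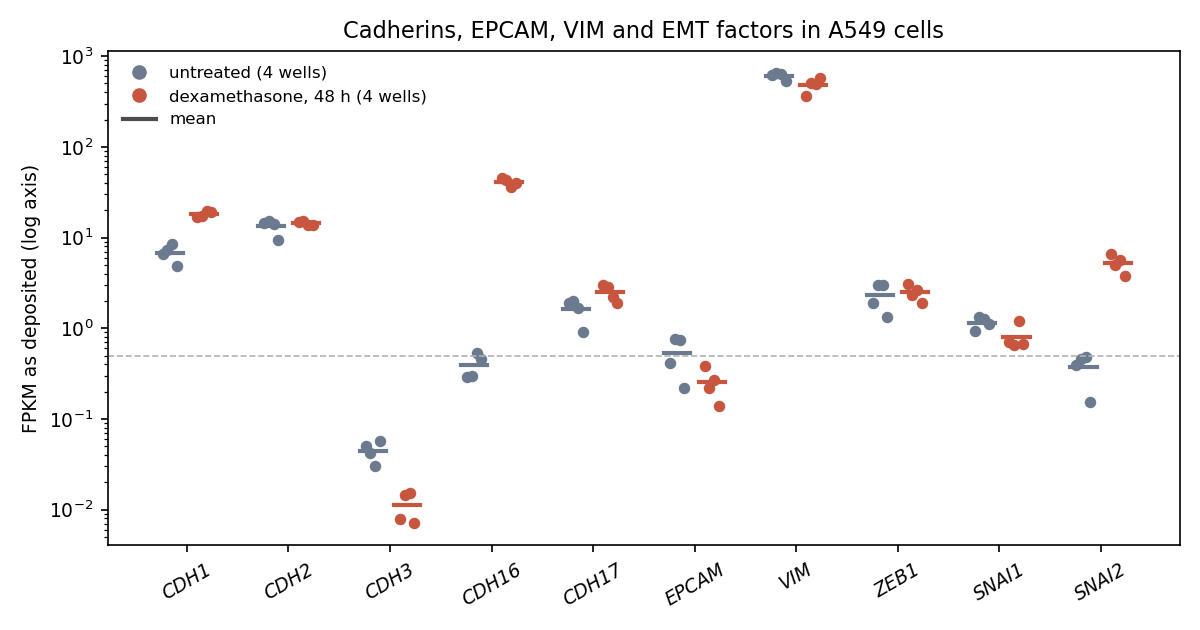
FPKM as deposited of the 10 members in each of 4 untreated (grey) and 4 dexamethasone (red) wells, on a log axis; each point is a library, each bar a group mean, and the dashed line marks 0.5 FPKM, the level used to filter low genes. CDH16, SNAI2 and CDH1 sit higher in every treated well, while CDH2, ZEB1 and VIM overlap between groups.

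**Figure D2:**
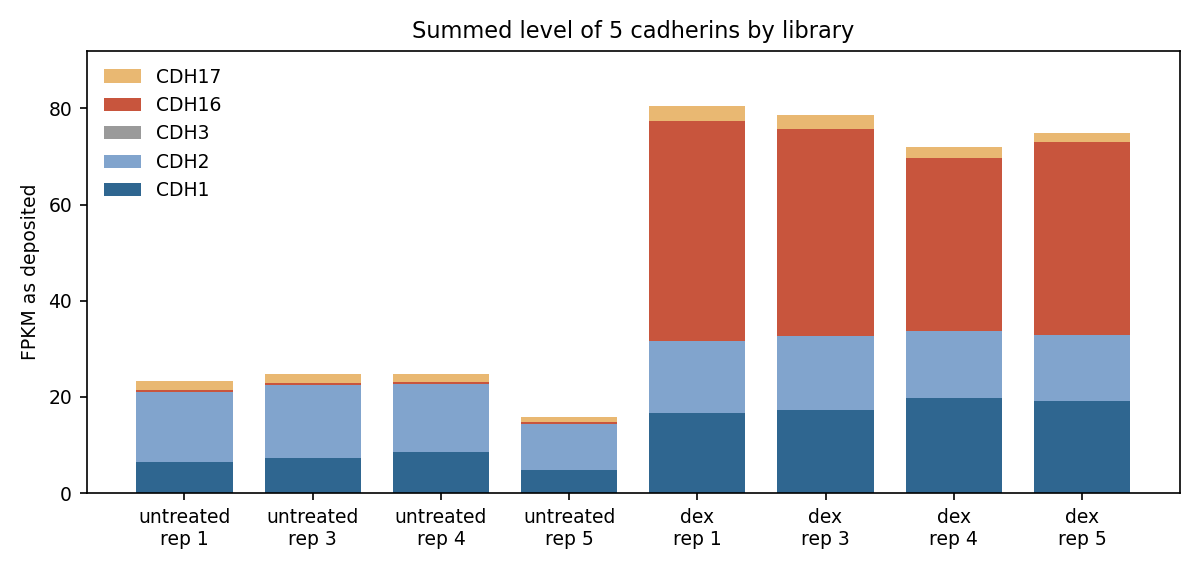
Stacked FPKM as deposited of CDH1, CDH2, CDH3, CDH16 and CDH17 in each library (dex, dexamethasone; rep, replicate number). The summed height is 15.8 to 24.8 FPKM in untreated and 72.0 to 80.4 FPKM in treated wells, and CDH16 is the largest part of every treated bar.

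Of the 3 transcription factors, SNAI2, also called Slug (ENSG00000019549, chromosome 8, minus strand), differed most. Its untreated values were 0.394, 0.461, 0.4796 and 0.155 FPKM and its treated values 6.56, 4.93, 5.69 and 3.72 FPKM. The groups were far apart, although replicate 5 was lowest in both. The means were 0.373 ± 0.149 and 5.22 ± 1.202 FPKM (SD, n = 4 each), a ratio of 14.0 and a log2 difference of 2.18 (SE 0.1396). SNAI2 overlaps an unnamed gene on the opposite strand.

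SNAI1 (Snail; ENSG00000124216, chromosome 20, 49982999 to 49988886, plus strand) was lower in 3 of the 4 treated wells than in any untreated well. It was at 0.920, 1.32, 1.25 and 1.103 FPKM untreated and at 0.706, 0.653, 1.19 and 0.663 FPKM treated. Treated replicate 4 lay inside the untreated range, and the log2 difference was -0.26 (SE 0.115), or -0.045 with the GC trend removed and -0.49 with a pseudocount of 0.1. ZEB1 (ENSG00000148516, chromosome 10, 31318495 to 31529814, plus strand) was at 1.88, 3.01, 2.98 and 1.34 FPKM untreated and 3.099, 2.296, 2.62 and 1.91 FPKM treated. Those values overlapped, with a log2 difference of 0.12 (SE 0.162), smaller than its standard error, and -0.20 with the GC trend removed. ZEB1-AS1 overlaps ZEB1 on the opposite strand.

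VIM (ENSG00000026025, chromosome 10, 17228259 to 17237593, plus strand) was at 615, 648, 638 and 537 FPKM in untreated and 368, 504, 495 and 569 FPKM in treated wells. It stood at the 99.6th percentile of all genes untreated and the 99.5th treated, and was the most abundant member in every library. The groups overlapped through treated replicate 5, and the log2 difference was -0.34 (SE 0.177). VIM-AS1 overlaps VIM on the opposite strand. EPCAM, the epithelial adhesion molecule used as a carcinoma marker (ENSG00000119888, chromosome 2, 47345158 to 47387601, plus strand), was at 0.418, 0.765, 0.747 and 0.221 FPKM untreated and 0.383, 0.221, 0.266 and 0.1404 FPKM treated. It was too low to be tested, and the ranges overlapped.

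Of the 10 members, 8 passed the filter on low values (at least 0.5 FPKM in at least 4 libraries), and CDH3 and EPCAM did not. In the limma fit over all 12161 genes tested, 4 of the 8 (CDH1, CDH16, CDH17 and SNAI2) had a Benjamini-Hochberg adjusted p under 0.05, all higher, where 27% of all tested genes were called and 12.7% were called higher. Groups did not overlap in deposited FPKM for 3 of the 8, all higher, against 31.5% of tested genes in either direction and 12.3% higher. Nothing is read from these counts, since the members were chosen with this comparison known and 2 of them passed the filter only through the treated wells. The call of CDH17 was lost in 7 of the 8 fits that left out 1 library, with differences of 0.33 to 0.49 in those 7. Among those fits it held only without dexamethasone replicate 5, at 0.50. Without both libraries numbered 5 the called members were 5, VIM being the added one and lower, at -0.43.

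The genes whose levels ran most like a member were taken by Pearson's r of scaled log2(FPKM + 1) over the 8 libraries, which share the treatment contrast. For CDH16 these were BEST2, GPR1 and PPL (r = 0.999 each). For CDH1 they were ALDH6A1 (r = 0.992), DNAJC1 (0.990) and OPTN (0.988). For CDH2 they were ARHGEF10 (r = 0.973), LMTK2 (0.965) and CLUAP1 (0.958), and for VIM CSNK1E (0.966), SCAF1 (0.963) and DCAF7 (0.962).

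Some transcription factors linked to the CDH16 and CDH17 genes were also read. HNF4A, a nuclear receptor of liver and intestine, was at 9.55 ± 0.388 and 6.92 ± 1.42 FPKM (SD, n = 4 each; log2 difference -0.42, limma adjusted p = 0.0961). PAX8 and CDX2 were too low to be tested, at 0.215 to 0.5401 and 0.0801 to 0.298 FPKM, and CDX1 was listed at 0 in all 8 libraries.

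Companion genes were taken from lists written from general knowledge, with earlier results of these data known. The wider cadherin superfamily comprised 55 genes besides the members, of which 52 were found and 15 passed the filter. In limma with Benjamini-Hochberg adjustment, 5 rose and 4 fell, against 12.7% and 14.3% of all tested genes. The median log2 difference was 0.06, and that of all tested genes was 0.02. FAT4, a giant cadherin of planar polarity and growth control, rose from 0.332, 0.336, 0.3295 and 0.146 FPKM to 1.55, 1.35, 1.18 and 0.969 FPKM. Its log2 difference was 0.82 (SE 0.0922, limma adjusted p = 0.000172), and every treated well was above every untreated one. FAT4 passed the filter on low values only through the treated wells, so nothing further is read from its p-value.

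CDH6, or kidney cadherin, fell from 1.08, 1.59, 1.42 and 0.6104 FPKM to 0.0463, 0.0401, 0.0667 and 0.0539 FPKM (log2 difference -1.01, SE 0.113, limma adjusted p = 0.000188). CDH6 and CDH16, both known from kidney tubules, thus differed in opposite directions. CDH6 passed the filter only through the untreated wells, so nothing further is read from its p-value. DSC3, a desmosomal cadherin, rose from 0.514 ± 0.263 to 1.12 ± 0.238 FPKM (SD, n = 4 each; log2 difference 0.51, limma adjusted p = 0.0148), with overlap at untreated replicate 3. CELSR2, a cadherin with a receptor-like membrane region, fell from 5.41 ± 0.677 to 3.63 ± 0.247 FPKM (SD, n = 4 each; log2 difference -0.45, limma adjusted p = 0.016). With the GC trend of each library removed both calls were lost, at 0.22 for DSC3 and -0.21 for CELSR2. The call of CELSR2 was also lost without dexamethasone replicate 4 (-0.42). DSC3 met the filter only with the treated wells, as untreated replicate 5 was at 0.172 FPKM. Nothing further is read from the p-value of DSC3. FAT1 was the most abundant of the list, at 48.4 ± 13.5 and 63.5 ± 11.8 FPKM (SD, n = 4 each; limma adjusted p = 0.11). The other calls, named after their values were seen, were CDH4, DSG2 and PCDH9 higher and CDH24 and CELSR1 lower, and each was lost in at least 4 of 8 fits that left out 1 library. The count of 9 went to 4 without untreated replicate 1 or dexamethasone replicate 3 or 4, to 5 without dexamethasone replicate 1, and to 5 with the GC trend removed.

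Another list held catenins, plakophilins, nectins and related genes of cell junctions. Of 22, 17 were tested, of which 6 rose and 1 fell in limma at an adjusted p under 0.05. The called share was 41.2% beside 27% of all tested genes, and the median log2 difference of the list was 0.06. PKP2, a plakophilin of the desmosomal plaque, rose from 3.88, 4.16, 4.39 and 2.53 FPKM to 15.6, 12.9, 15.3 and 12.8 FPKM. The log2 difference of PKP2 was 1.70 (SE 0.126, limma adjusted p = 1.32e-05). PLEKHA7, which ties the cadherin complex to microtubules, rose from 9.33, 10.4, 9.93 and 6.74 FPKM to 25.4, 25.9, 23.1 and 22.05 FPKM (log2 difference 1.34, SE 0.1105, limma adjusted p = 2.45e-05). For both genes the lowest treated well was above the highest untreated well.

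LIMA1, an actin-binding partner of alpha-catenin, rose from 1.28 ± 0.478 to 3.76 ± 0.474 FPKM (SD, n = 4 each; log2 difference 1.09, SE 0.142, limma adjusted p = 0.000436). NECTIN1, a nectin of adherens junctions, was the 1 gene that fell, from 6.17 ± 0.344 to 3.24 ± 0.235 FPKM (SD, n = 4 each; log2 difference -0.75, SE 0.133, limma adjusted p = 0.00264). JUP (plakoglobin) was the most abundant of this list, at 126 ± 22.3 and 103 ± 13.5 FPKM (SD, n = 4 each), and did not pass (limma adjusted p = 0.364). Of the desmosomal genes, DSP, the plaque linker desmoplakin, also rose, from 9.89 ± 3.12 to 17.9 ± 1.11 FPKM (SD, n = 4 each; limma adjusted p = 0.00485); it was named after its values were seen.

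The catenins bind the cytoplasmic tail of classical cadherins. CTNNB1 (beta-catenin) was at 76.8 ± 14.3 and 108 ± 11.01 FPKM (SD, n = 4 each; log2 difference 0.51, SE 0.145, limma adjusted p = 0.0274). This call was lost with the GC trend removed, at 0.35, and in 5 of 8 fits that left out 1 library (untreated replicate 1 or 4, or dexamethasone replicate 1, 3 or 5), at 0.41 to 0.52. CTNNA1 (alpha-catenin; 100 ± 26.3 and 107 ± 16.1 FPKM) and CTNND1 (p120-catenin; 34.1 ± 5.96 and 35.2 ± 4.64 FPKM) differed by less than the spread between replicates (SD, n = 4 each; limma adjusted p = 0.589 and 0.728). These 3 catenins were named after their values were seen.

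**Figure D3:**
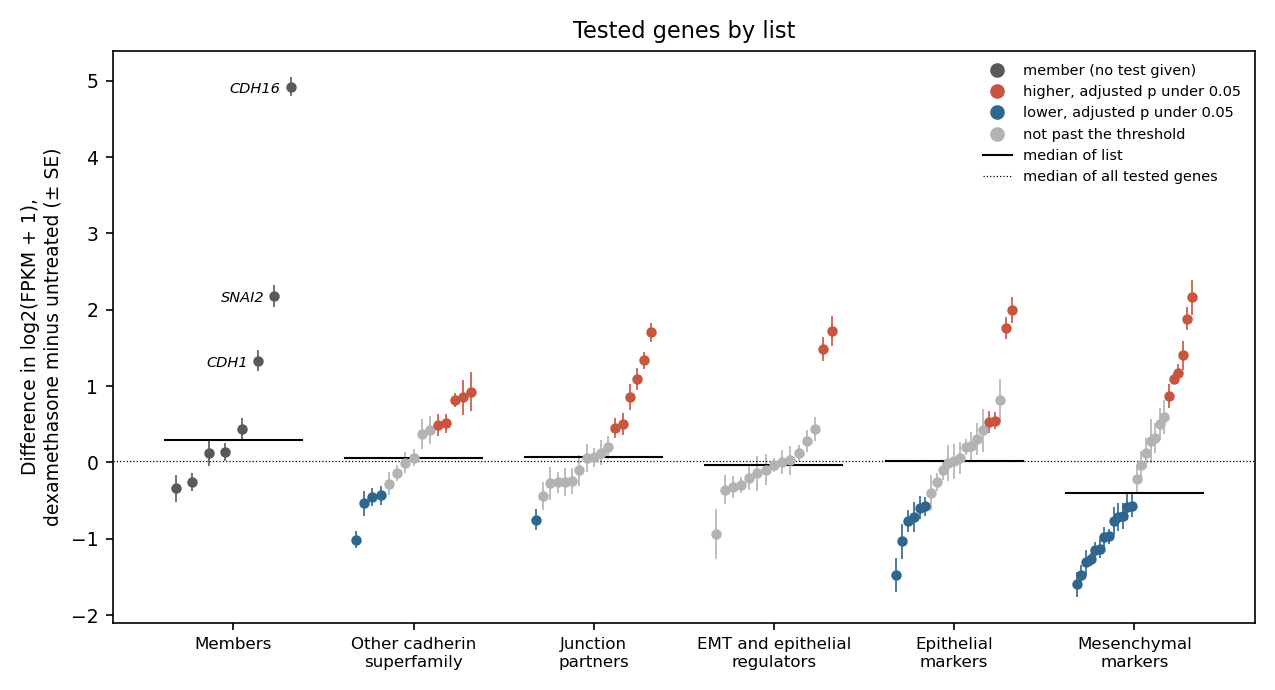
Difference in log2(FPKM + 1), dexamethasone minus untreated, with its SE, for each tested gene of the members and of 5 companion lists; solid bars are list medians and the dotted line the median of all tested genes. CDH16 at 4.92 lies above all genes shown, and called mesenchymal markers lie on both sides of 0.

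Few of the other regulators of EMT and of epithelial identity passed the threshold. Of 25, 15 were tested, 2 rose and 0 fell by limma at an adjusted p under 0.05, a called share of 13.3% beside 27% of all tested genes, and 6 had an unadjusted p under 0.05. ID1, an inhibitor of E-box-binding proteins, rose from 65.6, 70.1, 79.6 and 77.4 FPKM to 187, 201, 209 and 222 FPKM (log2 difference 1.48, SE 0.156, limma adjusted p = 0.000122). EHF, an ETS factor of epithelial cells, rose from 3.81, 4.79, 4.31 and 2.07 FPKM to 17.9, 11.96, 17.4 and 10.5 FPKM (log2 difference 1.72, SE 0.197, limma adjusted p = 0.00021). Neither gene overlapped between groups.

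ZEB2, the paralogue of ZEB1, was at 1.12 ± 0.497 and 1.78 ± 0.363 FPKM, and TWIST1 at 1.002 ± 0.0817 and 1.44 ± 0.457 FPKM (SD, n = 4 each). Neither passed (limma adjusted p = 0.0739 and 0.179); both were named after their values were seen. ZEB2 passed without untreated replicate 4 (0.53), without both libraries numbered 5 and with a replicate block, and TWIST1 with the GC trend removed (0.47). The splicing regulators ESRP1 and ESRP2, markers of the epithelial state, were at 0 to 0.0819 and 0.0107 to 0.0974 FPKM. The count of 2 was 4 without untreated replicate 5, 5 with the GC trend removed, 5 with a replicate block and 6 without both libraries numbered 5.

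Epithelial markers moved in both directions. Of 30, 21 were tested, 4 rose and 6 fell by limma at an adjusted p under 0.05, a called share of 47.6% beside 27% of all tested genes, and the median log2 difference was 0.02. CLDN7, a claudin that binds EPCAM, went from 0.0411, 0.145, 0 and 0.292 FPKM to 3.13, 2.93, 2.06 and 3.19 FPKM (log2 difference 1.76, SE 0.143, limma adjusted p = 2.46e-05). MUC1, a membrane mucin, rose from 1.16, 0.628, 0.645 and 0.857 FPKM to 5.08, 7.07, 5.61 and 7.27 FPKM (log2 difference 1.99, SE 0.166, limma adjusted p = 3.04e-05). In both, every treated well was above every untreated one. CLDN7 passed the filter only through the treated wells, so nothing further is read from its p-value.

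KRT19, a keratin of simple epithelia, fell from 131, 142, 149 and 200 FPKM to 43.97, 55.3, 55.5 and 64.2 FPKM (log2 difference -1.48, SE 0.225, limma adjusted p = 0.00115). CLDN4, a sealing claudin, fell from 2.13 ± 0.427 to 0.827 ± 0.218 FPKM (SD, n = 4 each; log2 difference -0.77, SE 0.147, limma adjusted p = 0.00408). KRT7, the keratin with the highest mean in the list, was at 1424 ± 275 and 2544 ± 806 FPKM (SD, n = 4 each) and missed the threshold (log2 difference 0.82, limma adjusted p = 0.0606), which it passed under 6 of 17 other settings, among them without untreated replicate 5, at 0.95. Its deposited values did not overlap between groups and its scaled values did.

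SNAI and ZEB proteins bind the hexamer CAGGTG, read as CACCTG on the other strand, an E-box. It was searched on both strands in RefSeq windows of 300 bases, 250 before to 50 after each gene start (GRCh38.p14), with no other motif. The hexamer was in 20.6% of all 35116 windows, and 24.1% of 27305 genes had it in at least 1 window. Among epithelial markers 13 of 17 genes with a window had it, or 76.5%, against 3 of 22 mesenchymal markers, or 13.6%; these are descriptions, since matches are not binding sites. Of the 13, 3 rose (CLDN7, MUC1 and TJP3), 3 fell (CLDN3, LAD1 and OCLN), 4 were not called and 3 were not tested. Of the markers whose windows lacked it, 1 fell and 3 were not called. The called share was 27% of all tested genes and 47.6% of the tested epithelial markers. Nothing is read from these small counts, and CLDN7 passed the filter only through the treated wells. The calls of TJP3 and OCLN were each lost in 6 of 8 fits that left out 1 library.

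Among the members, windows were matched for CDH2, VIM and ZEB1. The other members, CDH1 among them, had no window, so the E-cadherin gene was not searched. Neither of the 2 CDH2 windows nor the VIM window held the hexamer, and 2 of the 7 ZEB1 windows did. Shown are the window with the most matches of ZEB1, a member that binds the hexamer, and of CLDN7 and MUC1, the markers with the smallest p. Sequences run 5′ to 3′ on the strand of the gene, and capitals mark the hexamer. ZEB1 is at chr10:31318966-31319265 (plus strand), CLDN7 at chr17:7262429-7262728 (minus strand) and MUC1 at chr1:155192860-155193159 (minus strand).
ZEB1: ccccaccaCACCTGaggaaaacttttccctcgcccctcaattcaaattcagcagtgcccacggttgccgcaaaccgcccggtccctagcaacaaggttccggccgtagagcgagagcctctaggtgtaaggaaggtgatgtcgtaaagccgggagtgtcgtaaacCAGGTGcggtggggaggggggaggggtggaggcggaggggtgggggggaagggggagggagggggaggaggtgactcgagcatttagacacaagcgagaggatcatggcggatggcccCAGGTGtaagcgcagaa
CLDN7: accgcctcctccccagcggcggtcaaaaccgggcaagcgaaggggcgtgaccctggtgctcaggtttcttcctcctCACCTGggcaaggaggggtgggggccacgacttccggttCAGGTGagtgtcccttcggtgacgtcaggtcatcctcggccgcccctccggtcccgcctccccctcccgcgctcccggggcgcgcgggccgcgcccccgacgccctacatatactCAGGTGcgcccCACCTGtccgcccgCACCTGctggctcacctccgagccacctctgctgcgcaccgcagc
MUC1: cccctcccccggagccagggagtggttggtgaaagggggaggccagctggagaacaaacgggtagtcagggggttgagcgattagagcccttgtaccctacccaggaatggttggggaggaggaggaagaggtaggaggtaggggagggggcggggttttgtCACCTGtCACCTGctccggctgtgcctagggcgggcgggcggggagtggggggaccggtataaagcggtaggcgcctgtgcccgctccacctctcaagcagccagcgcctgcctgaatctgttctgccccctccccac
The windows hold 3, 5 and 2 matches. Among markers with the hexamer, CLDN7, MUC1 and TJP3 were higher and CLDN3, LAD1 and OCLN lower in the wells where SNAI2 was higher. No binding was measured, and an effect of SNAI2 was not tested.

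Mesenchymal markers moved in both directions. Of 34, 26 were tested, of which 6 rose and 13 fell by limma at an adjusted p under 0.05, a called share of 73.1% beside 27% of all tested genes. Their median log2 difference was -0.39, beside 0.02 for all tested genes. LOX, a collagen cross-linking oxidase, went from 0, 0.00779, 0.03702 and 0 FPKM to 1.31, 1.24, 1.13 and 0.983 FPKM (log2 difference 1.10, SE 0.0705, limma adjusted p = 5.93e-06). ITGA5, the alpha chain of the fibronectin receptor, rose from 13.9, 12.9, 12.2 and 13.2 FPKM to 43.7, 53.96, 47.3 and 58.4 FPKM (log2 difference 1.88, SE 0.156, limma adjusted p = 2.9e-05). Treated wells lay above all untreated wells for both. LOX passed the filter only through the treated wells, so nothing further is read from its p-value.

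TNC, or tenascin C of the matrix, fell from 1.62, 2.15, 1.73 and 1.74 FPKM to 0.123, 0.135, 0.172 and 0.195 FPKM (log2 difference -1.27, SE 0.0901, limma adjusted p = 1.07e-05). SPARC, another matrix glycoprotein, fell from 4.09, 4.27, 3.73 and 4.32 FPKM to 0.767, 0.814, 0.757 and 1.01 FPKM (log2 difference -1.47, SE 0.127, limma adjusted p = 3.29e-05). Both groups were apart in each gene. TNC passed the filter only through the untreated wells, so nothing further is read from its p-value. S100A4, a calcium-binding protein, was the most abundant of the list at 1051 ± 127 and 1129 ± 87.6 FPKM (SD, n = 4 each) and did not pass (limma adjusted p = 0.676).

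Several other markers were named after their values were seen. Of the cytoskeletal and matrix genes that rose, CALD1 (caldesmon) had a log2 difference of 2.16 (SE 0.227, limma adjusted p = 0.000126), and FN1 (fibronectin, the ligand of ITGA5) 1.40 (SE 0.186, limma adjusted p = 0.000501). Of those that fell, the receptor kinase AXL had -1.60 (SE 0.163, limma adjusted p = 0.000106), and CD44, the hyaluronan receptor, -1.31 (SE 0.165, limma adjusted p = 0.00037). These 4 calls held in all 17 other fits run, with the direction unchanged in each.

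**Figure D4:**
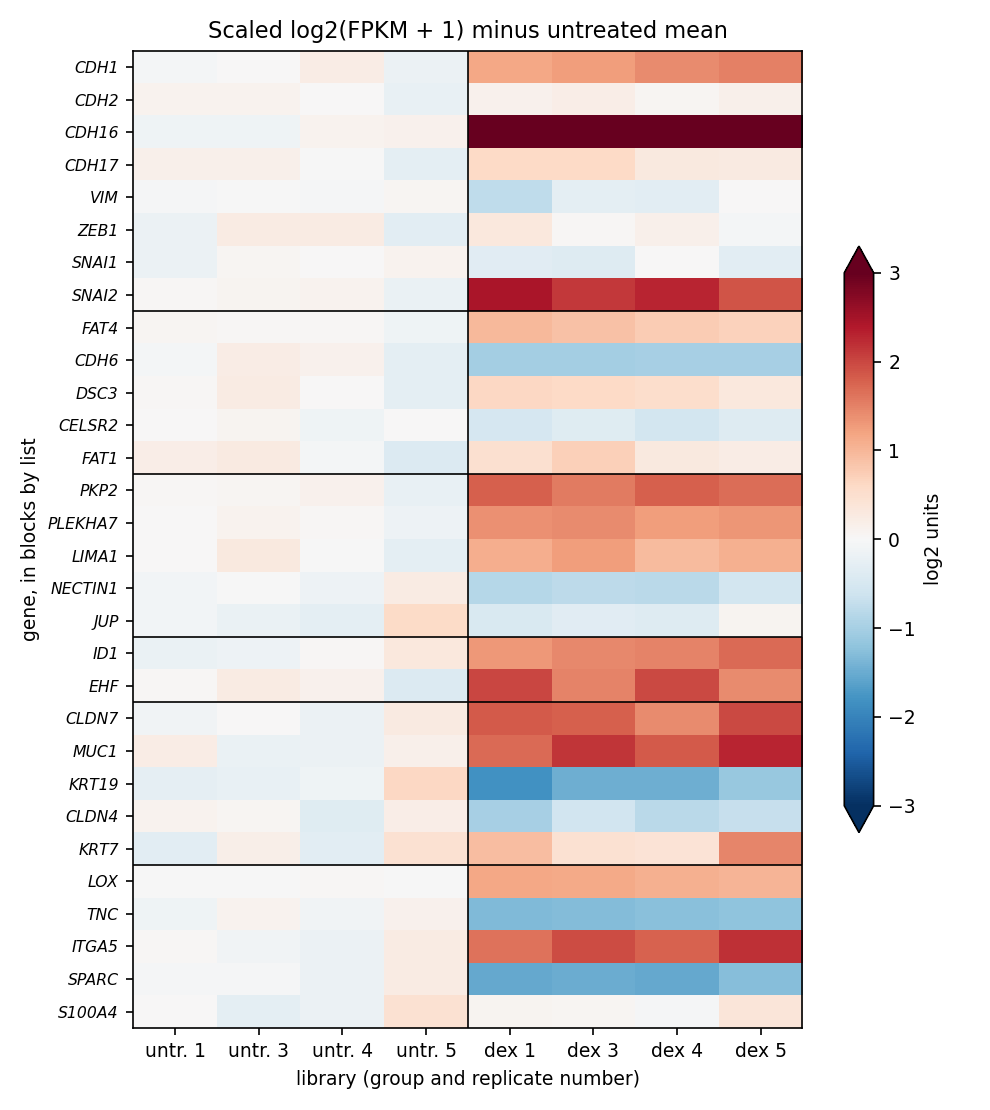
Scaled log2(FPKM + 1) of each tested member (top block) and of the companion genes named by rule, minus the untreated mean of the gene, in the 8 libraries; blocks are the lists, colours run from -3 (blue) to 3 (red), and values past 3 have the end colour. CDH16, SNAI2, PKP2, EHF, MUC1 and ITGA5 are red in all 4 treated libraries, and SPARC, TNC, CDH6 and KRT19 are blue.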

How the data were processed

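Per the labels and the submitters' processing notes, the authors checked reads with FastQC 0.11.9, trimmed them with cutadapt 3.4, aligned them to GRCh38 with STAR 2.7.9a, counted genes with featureCounts (Subread 2.0.3) and tested with DESeq2 1.32.0. The deposited values, described as counts, are not whole numbers and were read as FPKM: sums differed between libraries, and values times transcript length summed to 1014750049 to 1106152249. The step that made them is not given in the sources used here. Whole reads were not recovered (36.7% to 46.1% of low values within 0.1 of a whole fragment, 20% by chance), so no count test was run.

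FPKM were scaled between libraries by the TMM method (trimming 0.3 of log ratios and 0.05 of mean levels at each end), written in R. log2(FPKM + 1) of genes with at least 0.5 FPKM in at least 4 libraries (3 when 1 or more was left out) was fitted with limma 3.58.1 in R 4.3.3 (trend, robust; group only), two-sided, Benjamini-Hochberg over 12161 genes. p-values measure the spread between wells. The fit was tested on simulated data with known changes. GENCODE v44 held 19065 of the 19158 gene identifiers and gave strand, overlaps and GC content, with coordinates overlapping for 19052; positions are as deposited. Members and lists were chosen with earlier results of these data known. Named companions were, per list, the 4 called genes with the smallest p, the most abundant, and the leading call in the minority direction, regulators of CDH16 and CDH17, and 3 correlates each of CDH1, CDH2, CDH16 and VIM; others are said to be named after their values were seen. Some genes of these lists are not reported here.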

Additional observations from a re-analysis of the deposited data

Results flagged for a closer look

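SNAI1 in dexamethasone replicate 4 was at 1.19 FPKM, while the other 3 treated wells were at 0.653 to 0.706 FPKM, a gap of 0.903 of the range of the group. It was the only sample that stood apart among 20 groups of 4 values (10 members in 2 groups), where chance gives about 1 in 20. Without that library the log2 difference of SNAI1 was -0.35, compared with -0.26 with it.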

How the results depend on the processing

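Of 255 repeats of the results under other settings, 235 stayed within the tolerance used, 18 moved beyond it and 2 reversed. The tolerance was the within-group SD for a difference and a factor of 1.5 for a count, so values inside it still shifted, as ZEB1 did from 0.12 to 0.0040 without untreated replicate 5. With the GC trend of each library removed, CDH2 went to -0.031 and ZEB1 to -0.20, SNAI1 to -0.045, SNAI2 to 1.96 and CDH16 to 5.16, with 5 superfamily cadherins and 5 EMT regulators called; the cause was not tested. Fold changes fell with gene GC content (a rank correlation, rho, of -0.443 over genes as points that share libraries). A pseudocount of 0.1, which compresses low genes less, gave 6.42 for CDH16, 0.64 for CDH17, -0.49 for SNAI1 and 3.56 for SNAI2. Without 1 library at a time, 2346 to 3880 genes in all, 4 to 9 superfamily cadherins, and 2 to 4 EMT regulators were called. Without both libraries numbered 5, 5551 genes and 6 EMT regulators were called. With a replicate block 5758 genes and 5 EMT regulators were called. The numbers do not pair the wells by any label: correlations of same-numbered deviations were 0.290, 0.0659, 0.313 and 0.712 for replicates 1, 3, 4 and 5, and 2 of 4 untreated libraries correlated best with their own number. CDH3 and EPCAM entered only the fit with no filter, at -0.05 and -0.27. Depth is known only to within a factor, and values near 0.01 FPKM rest on few fragments.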

Other observations

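Further cadherins were too low to be tested and are given as values. CDH5, the endothelial cadherin, had 0.0637 to 0.146 FPKM in untreated wells. It was listed at 0 in 3 of the 4 treated wells and had 0.00964 FPKM in dexamethasone replicate 1. CDH11, a cadherin of mesenchymal cells, did not exceed 0.0055 FPKM in any library. The epidermal desmogleins DSG1 and DSG3 and the plakophilin PKP1 were listed at 0 in all 8 libraries. PRSS8, a membrane protease of epithelial cells, was at 0 to 0.0425 FPKM untreated and at 0.105 to 0.376 FPKM after dexamethasone.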
